A study of Homo sapiens with 6 samples.

Results

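F-box protein genes are described here across 6 clonal HEK293 lines, with FBXL7 as the member that differed most between the groups. The members are the genes whose symbol is FBXL, FBXO or FBXW followed by a number and at most 1 letter, without pseudogene symbols ending in P. This gave 64 of the 58395 genes in the count tables: 18 FBXL, 37 FBXO and 9 FBXW genes. Of these, 57 had enough reads to be tested between the groups and 7 did not.

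HEK293 is an established line of human embryonic kidney origin. GST lines 2, 8 and 9 expressed GST-3F, glutathione S-transferase with the tag written 3F in the labels, and served as controls. NOCT lines 4, 11 and 12 expressed NOCT ∆(2-15)-3F, which is nocturnin lacking residues 2 to 15 with the same tag. Each line is 1 clone, so the spread within a group holds differences between clones, and the promoter that drives the constructs is not given in the sources used here. Cells grew for 3 days before harvest, and the study set lines with this nocturnin against lines with GST.

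F-box proteins are the substrate receptors of SCF ubiquitin ligases. The F-box binds the adaptor SKP1, which joins it to the cullin CUL1 and the RING protein RBX1, and the rest of the protein holds the target so that it is ubiquitylated and often degraded. FBXL proteins carry leucine-rich repeats, FBXW proteins carry WD40 repeats, and FBXO proteins carry other domains. Several act on the circadian clock, where FBXW11 binds the period proteins, and nocturnin is itself encoded by a gene with rhythmic expression.

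Gene counts per library ranged from 19729745 to 24422406. The GST construct had 46 to 88 reads in the GST lines and 0 to 1 in the NOCT lines, while the NOCT construct had 46 to 82 in the NOCT lines and 3 to 7 in the GST lines. The 8 HEK293 and embryonic kidney markers reported had reads in every line, and 4 of them split by group without overlap. Among all genes tested, the groups did not overlap for 20.02%, read on library-scaled counts rather than TPM. PAX2 had 1.796 to 2.45 TPM in GST lines and 0.370 to 0.618 TPM in NOCT lines, while EYA1 (3.78 to 4.32 against 5.93 to 10.5 TPM), KRT8 (31.3 to 38.3 against 45.8 to 114 TPM) and KRT18 (56.0 to 63.9 against 66.3 to 130 TPM) were higher in NOCT lines. The groups overlapped for VIM (353 to 856 TPM), NEFL (32.5 to 57.3 TPM), LHX1 (2.32 to 13.7 TPM) and NEFM (0.125 to 4.44 TPM). Their part in the results was not tested. The blood markers CD3E and HBB were at 0 in every line and PTPRC reached at most 0.0618 TPM. The endothelial markers PECAM1 and CDH5 reached at most 0.110 and 0.0204 TPM, and the liver markers ALB and APOA1 0.158 and 0.342 TPM. Of the fibroblast markers, COL1A1 lay at 2.14 to 7.28 TPM, while COL3A1 and PDGFRB reached at most 0.516 and 0.151 TPM. TPM is a level scaled for gene length and depth, and CPM is a count relative to library size, scaled here with TMM factors. Libraries of cultured cells cannot tell a lower level in every cell from fewer cells with the RNA.

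FBXL7 RNA was nearly absent in all 3 NOCT lines and present in all 3 GST lines. FBXL7 (ENSG00000183580) encodes a leucine-rich-repeat F-box protein whose known targets include Aurora kinase A and survivin. It lies on the plus strand at chr5:15500196-15939795 (GRCh38, GENCODE release 29), with 3 protein-coding transcripts of 2 to 4 exons. A pair of these start about where RefSeq places starts of its own on GRCh38.p14. The 250 bases before each RefSeq start are shown because they differ in CpG content, with each CG pair in capitals. Both lie outside the annotated exons, the first ahead of the gene and the second inside its first intron.
FBXL7 first start, chr5:15499930-15500179, plus strand: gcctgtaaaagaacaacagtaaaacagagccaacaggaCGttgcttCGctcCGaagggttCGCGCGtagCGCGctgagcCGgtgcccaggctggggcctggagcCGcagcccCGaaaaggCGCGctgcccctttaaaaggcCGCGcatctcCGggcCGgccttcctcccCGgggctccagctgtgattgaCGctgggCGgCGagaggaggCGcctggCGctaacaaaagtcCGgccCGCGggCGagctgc
FBXL7 second start, chr5:15501188-15501437, plus strand: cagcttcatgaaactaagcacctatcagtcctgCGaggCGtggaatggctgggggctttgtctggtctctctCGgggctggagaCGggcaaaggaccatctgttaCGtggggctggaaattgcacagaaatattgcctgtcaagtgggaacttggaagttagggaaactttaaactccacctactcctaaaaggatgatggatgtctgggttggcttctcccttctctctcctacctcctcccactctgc
The first window held 27 CG pairs and the second held 5. Among the 35116 RefSeq windows of the same length, the median was 11. At least 27 were held by 17.7% of them and at least 5 by 65.7%. Over the windows of F-box members the median was 21. The E-box CACGTG, a motif that reads the same on both strands and that clock transcription factors can bind, was in neither FBXL7 window. It was in a window of 5 of the 48 members with an entry (FBXL2, FBXL5, FBXL19, FBXW4 and FBXW8), which is 8.82% of 68 member windows against 6.34% of all windows.

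GST lines 2, 8 and 9 had 95, 315 and 274 FBXL7 reads, which is 5.01, 14.6 and 13.5 CPM. NOCT lines 4, 11 and 12 had 3, 12 and 4 reads, which is 0.118, 0.538 and 0.201 CPM. The groups did not overlap: the lowest GST line stood 9.32-fold above the highest NOCT line. Summed over lines, 684 reads against 19 gave a GST level 40.0-fold that of the NOCT lines, with a 95% exact counting interval of 25.4 to 66.9 that covers counting error only. In length-scaled terms FBXL7 went from 6.42 ± 3.20 TPM (SD, n = 3) in GST lines to 0.174 ± 0.136 TPM (SD, n = 3) in NOCT lines.

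FBXL7 fell in NOCT lines by 5.26 on the log2 scale (SE 0.60, edgeR quasi-likelihood test, adjusted p = 0.0360). Its fold change was number 8 from the most negative of 17261 genes tested, and its p was number 10. The size kept its direction in each of the 15 alternatives, with log2 fold changes of -6.10 to -2.55. The call did not hold in 6 of them. It was lost without GST line 8 (adjusted p = 0.123 by edgeR), without GST line 9 (0.245), without NOCT line 4 (0.11) and without NOCT line 11 (0.0818), and also with limma voom (0.0846) and limma on log2(TPM + 1) (0.0665).

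FBXL7 varied within the GST group as well. Line 2 was lower than lines 8 and 9, a 2.92-fold range that 4.62% of all genes tested reached or passed among the GST lines. In the authors' deposited table, whose fold changes are shrunken, FBXL7 had a log2 fold change of -2.39 and an adjusted p of 1.54e-20.

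**Figure D1:**
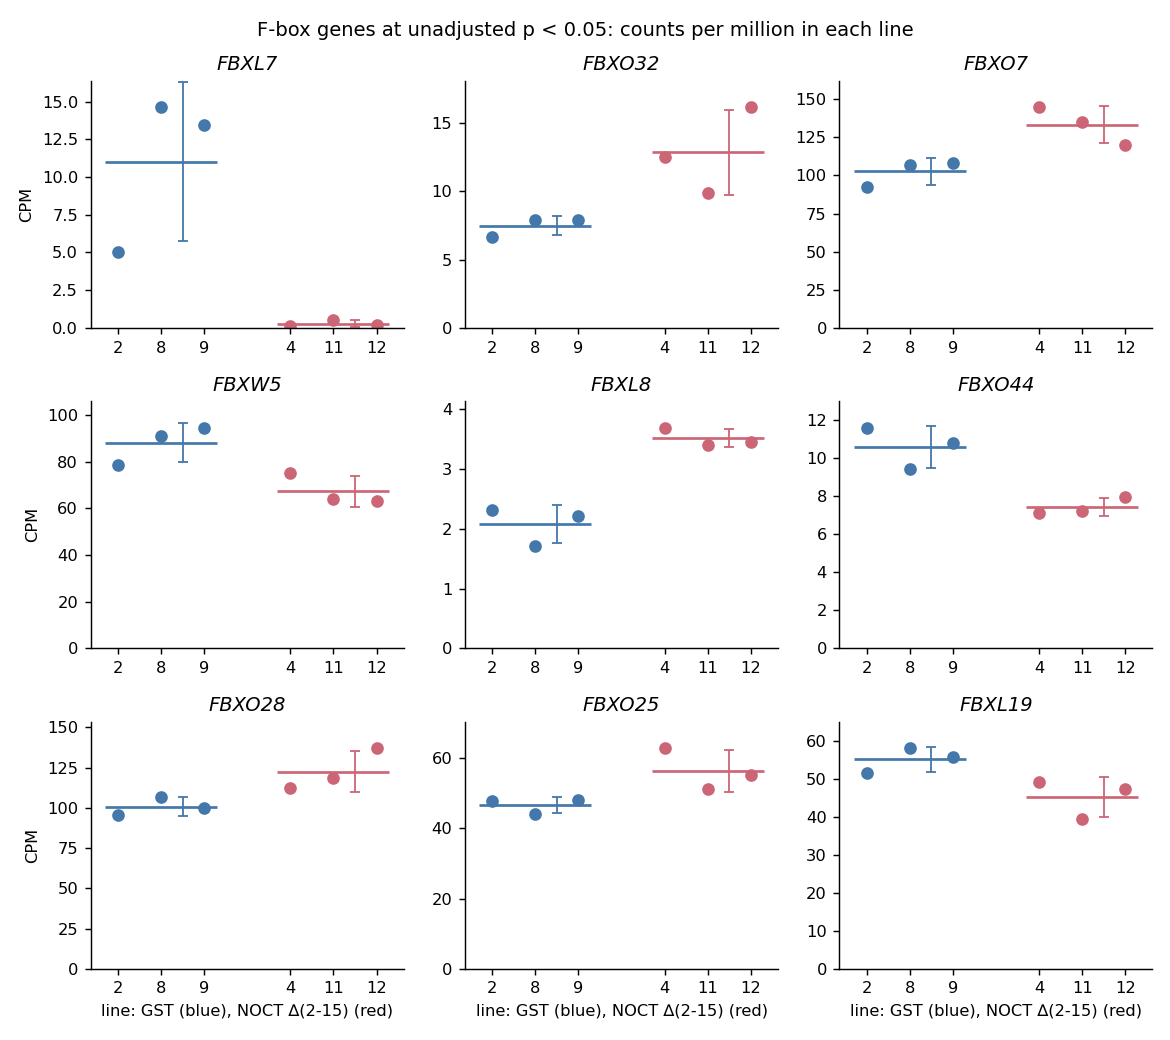
Library-scaled counts (CPM, y axis, from 0) of the 9 F-box genes with an unadjusted p under 0.05, in GST lines (blue) and NOCT lines (red); points are lines, horizontal bars are group means and vertical bars are the SD over 3 lines. FBXL7 is the only panel in which a group sits near 0, while the other 8 genes differ by less than 2-fold.

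No tested gene around FBXL7 differed by as much as FBXL7 did. Within 5 Mb on either side, 14 other genes were tested, and their log2 fold changes ranged from -0.50 for FAM105A to 0.92 for DNAH5, with a median of -0.07. None had an adjusted p under 0.05 in edgeR, DESeq2 or limma voom, while 3, 2 and 3 had an unadjusted p under 0.05. In edgeR that is 21.4% of the 14 against 13.9% of all genes. The closest tested upstream gene, ANKH, which encodes a pyrophosphate transporter, had a log2 fold change of -0.14 (SE 0.11). The closest tested downstream gene, ZNF622, had one of 0.11 (SE 0.14). Over the nearest expressed genes, up to 50 on each side, the median NOCT level differed from the GST level by -0.02 on the log2 scale. With those neighbours as an offset, FBXL7 kept a difference of -5.24 on the log2 scale (edgeR adjusted p = 0.021). Both genes annotated inside FBXL7, MIR887 on the same strand and AC010638.1 on the opposite strand, had 0 reads.

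**Figure D2:**
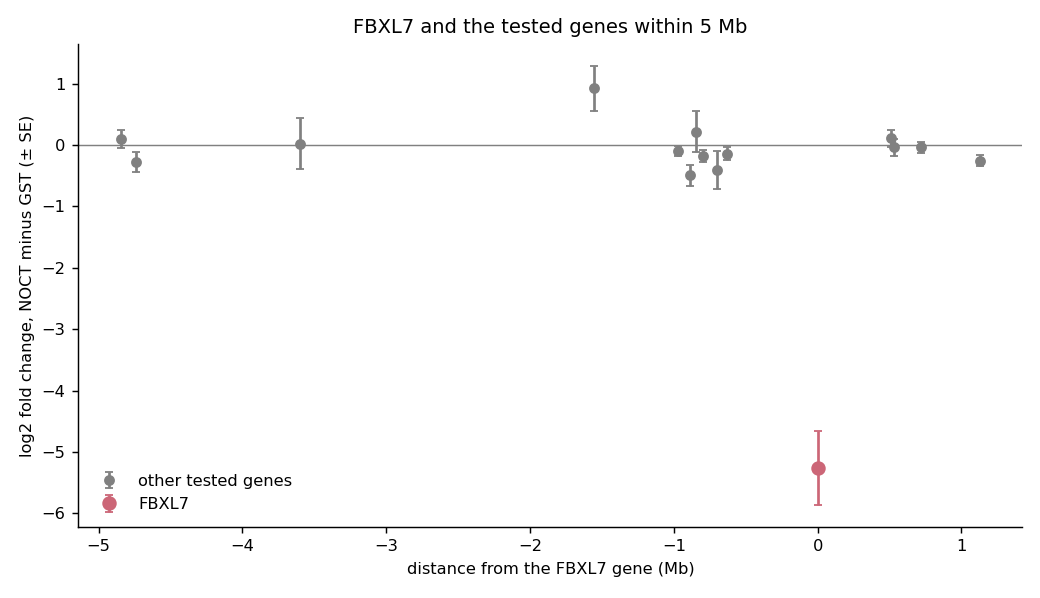
Log2 fold change of NOCT against GST lines (y axis, points with SE bars) for FBXL7 (red) and the 14 other tested genes (grey) by distance from the FBXL7 gene in Mb (x axis). The grey points lie between -0.50 and 0.92, and FBXL7 lies at -5.26.

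The F-box family as a whole was broadly expressed. On the TPM scale, 54 of the 64 genes had a mean of at least 1 over the 6 lines, 31 of at least 10 and 3 of at least 50. The median was 9.45 TPM. FBXO39 and FBXO47 had 0 reads in every line, which allows up to 3 reads each, FBXO40 had 1 read in all, and FBXW10 had 12. FBXL22, FBXO15 and FBXO24 had 50, 51 and 35 reads in all, and these 7 were not tested.

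The highest FBXO gene was FBXO5, which encodes EMI1, an inhibitor of the anaphase-promoting complex. It had 72.6, 78.8 and 69.5 TPM in GST lines 2, 8 and 9 and 82.8, 85.7 and 87.4 TPM in NOCT lines 4, 11 and 12. FBXO28, whose protein targets the topoisomerase TOP2A, had a mean of 53.2 TPM, and FBXO7, which encodes a protein of mitophagy, had 40.1 TPM. FBXW5, a receptor for the centriole protein SASS6, led its class at 68.7 TPM, ahead of FBXW11 (beta-TrCP2) at 40.0 TPM and FBXW2 at 20.3 TPM. The FBXL class was flatter at its top, with means of 33.3 TPM for FBXL19, 30.9 TPM for FBXL14 and 30.1 TPM for FBXL20. The ranges of these 3 over the 6 lines overlapped, from 26.8 to 39.0 TPM in all, so their order is not beyond their spread.

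FBXL7 in the GST lines, at 2.77, 8.77 and 7.71 TPM, lay below the family median. Even there it was a minor member of the family. The TPM of all members summed to 919 ± 35.4 (SD, n = 3) in GST lines and 984 ± 59.0 (SD, n = 3) in NOCT lines, ranges that overlapped. By class, the FBXO sums did not overlap, at 508 to 535 TPM in GST lines and 557 to 615 TPM in NOCT lines. The ranges did overlap for FBXL (221 ± 13.5 against 229 ± 17.0 TPM) and FBXW (181 ± 9.65 against 168 ± 14.1 TPM). Over all genes tested, the median difference between NOCT and GST lines was 0.07 on log2(TPM + 1), 0.00 on TMM-scaled CPM and 0.15 with the spike-in totals.

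**Figure D3:**
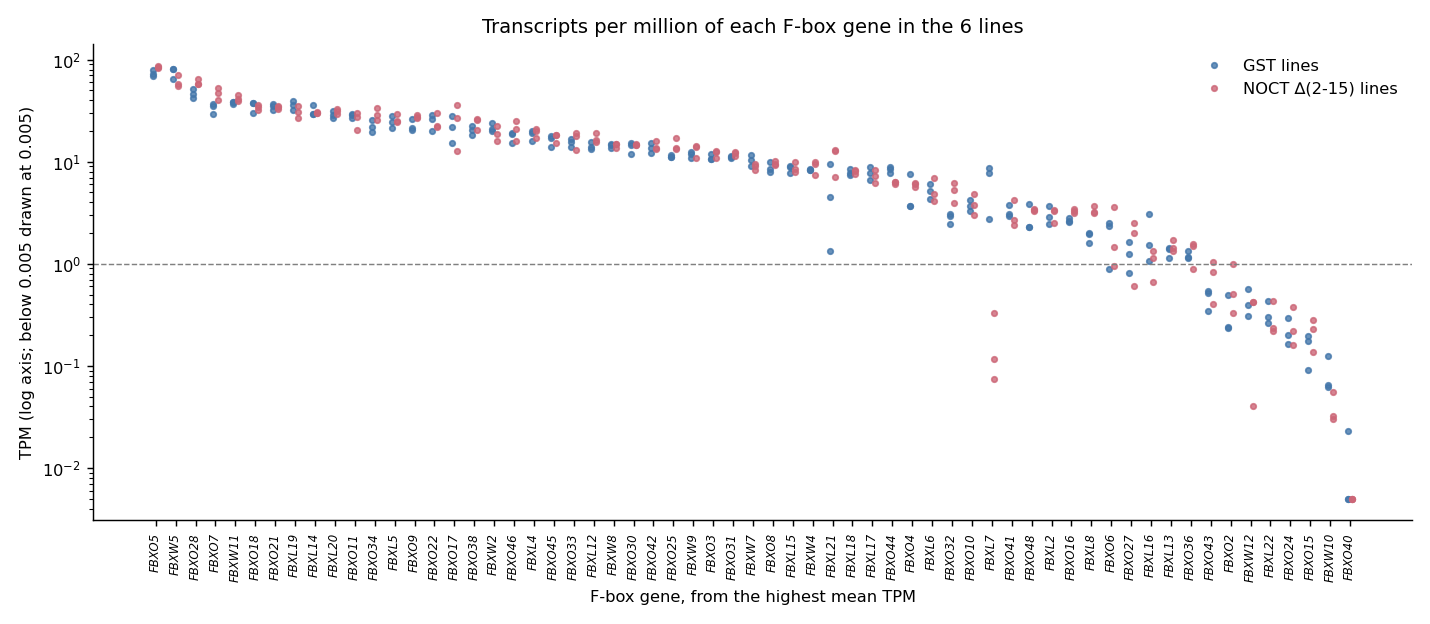
TPM on a log axis (y) of each reported F-box gene with any read, ordered by mean (x), in the GST lines (blue) and NOCT lines (red); the dashed line marks 1 TPM and values under 0.005 are drawn at 0.005. FBXO5 is highest at a mean of 79.5 TPM, and FBXL7 is the gene whose red points fall far below its blue ones.

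Apart from FBXL7, the family differed little between the groups. Of 57 members tested, 32 had higher and 25 had lower fitted levels in NOCT lines, and the median log2 fold change was 0.02, against 0.00 over all genes tested. Scaling to the spike-in totals moved the members' median to 0.17, and correcting for how chromosomal neighbours deviated moved that of the members to -0.0046. The median size of the change was 0.134 for members and 0.195 for all genes, and 38 members lay within 0.25 of 0. FBXL7 was the only member with a fold change of at least 2-fold.

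FBXL7 was also the only member past an adjusted p of 0.05 in edgeR, where 0.0579% of all genes passed. At an unadjusted p under 0.05, 5 members were higher in NOCT lines, where 7.38% of all genes were, and 4 were lower, where 6.52% of all genes were. That is 15.8% of the members against 13.9% of all genes. The groups did not overlap for 7 members with higher NOCT levels (10.5% of all genes) and for 4 with lower ones (9.54% of all genes), or 19.3% of members against 20.02% of all genes. Both shares were near the background.

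By class, the median log2 fold change was -0.03 for 17 FBXL genes, 0.06 for 32 FBXO genes and -0.18 for 8 FBXW genes. No FBXO or FBXW gene passed the adjusted threshold in edgeR, where 5 and 1 had an unadjusted p under 0.05. That is 15.6% of the FBXO and 12.5% of the FBXW genes tested, against 13.9% of all genes. DESeq2, in which 3.41% of all genes passed, called FBXL7 and FBXO32, and limma voom, in which 0.0927% passed, called no member. At an unadjusted p under 0.05, limma voom had 11 members (14.3% of all genes) and DESeq2 had 9 (13.5% of all genes). Of the genes with an adjusted p in the authors' deposited table, 2.87% were under 0.05, and of its 56 members with one, FBXL7 and FBXO32 were.

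**Figure D4:**
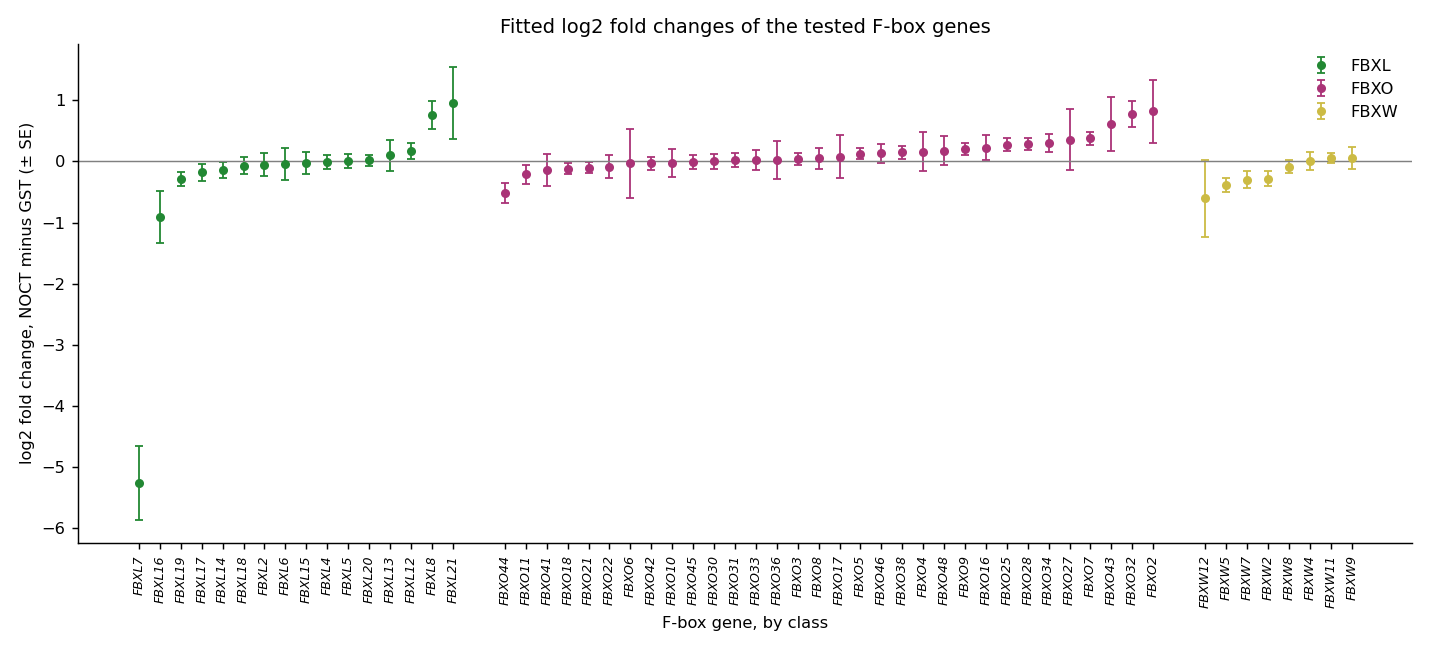
Fitted log2 fold change of NOCT against GST lines (y axis, points with SE bars) for the tested F-box genes that are reported, grouped by class and ordered within it (x axis). FBXL7 lies at -5.26 and the others lie between -0.91 (FBXL16) and 0.96 (FBXL21).

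FBXO32 had the smallest p after FBXL7. It encodes atrogin-1, a ubiquitin ligase receptor known from muscle atrophy, at chr8:123497889-123541206 (GRCh38). The GST lines had 6.70, 7.88 and 7.91 CPM, and NOCT lines 4, 11 and 12 had 12.5, 9.90 and 16.1 CPM. Every NOCT line was above every GST line, and line 12 was highest. The log2 fold change was 0.78 (SE 0.21), with an edgeR adjusted p of 0.196 and a DESeq2 adjusted p of 0.0381. In the authors' deposited table it was 0.62 with an adjusted p of 0.0363. The neighbouring genes of FBXO32 were 0.45 above their mean in NOCT line 12, between -0.12 and -0.06 in the other 5 lines, and with them as an offset its log2 fold change was 0.57 (edgeR adjusted p = 0.169).

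FBXO7 and FBXW5 differed together with their chromosomal surroundings. FBXO7, on chromosome 22, had 92.7, 107 and 108 CPM in the GST lines and 145, 135 and 120 CPM in NOCT lines 4, 11 and 12. Its groups did not overlap, and the log2 fold change was 0.38 (SE 0.11, edgeR adjusted p = 0.205). Its neighbours were higher by 0.29 in NOCT lines, and with the neighbour offset the fold change of FBXO7 was 0.09. Without NOCT line 12, FBXO7 passed the edgeR threshold (log2 fold change 0.45, adjusted p = 0.0479).

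FBXW5, on chromosome 9, had 78.7, 91.1 and 94.5 CPM in the GST lines and 75.0, 64.0 and 63.0 CPM in the NOCT lines. Its log2 fold change was -0.39 (SE 0.11, edgeR adjusted p = 0.213), and the neighbours differed by -0.32. With the offset, -0.07 remained for FBXW5. RBX1, the RING subunit on chromosome 22 like FBXO7, had a log2 fold change of 0.23 with neighbours at 0.25; it was picked out after its values were seen.

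FBXL8 and FBXO44 kept most of their difference beside their neighbours. FBXL8 had 2.32, 1.72 and 2.21 CPM in the GST lines and 3.69, 3.40 and 3.46 CPM in the NOCT lines. The log2 fold change was 0.76 (SE 0.23, edgeR adjusted p = 0.227), and 0.55 with the neighbour offset. FBXL8 overlaps TRADD on the opposite strand; the libraries are strand-specific, per the labels' protocols. FBXO44 had 11.6, 9.41 and 10.8 CPM in the GST lines and 7.14, 7.21 and 7.97 CPM in the NOCT lines. Its log2 fold change was -0.51 (SE 0.16, edgeR adjusted p = 0.236), its neighbours differed by -0.02, and with the offset it was -0.49. None of these values passed the adjusted threshold.

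The remaining members with an unadjusted p under 0.05 differed by small amounts. FBXO28 had 95.2 to 107 CPM in GST lines and 112 to 137 CPM in NOCT lines, a log2 fold change of 0.28. FBXO25, whose protein is found in the nucleus, had 44.0 to 48.0 CPM and 51.2 to 62.8 CPM, a log2 fold change of 0.27. FBXL19, whose protein also binds unmethylated CpG DNA, had 51.7 to 58.1 CPM and 39.4 to 49.2 CPM, a log2 fold change of -0.29. Their edgeR adjusted p values were 0.284, 0.311 and 0.319. FBXO9 and FBXO16 had groups that did not overlap without an unadjusted p under 0.05, with log2 fold changes of 0.21 and 0.23. FBXO16 overlaps ZNF395 on the same strand by gene span. Whether their exons share bases was not checked, and reads of any shared stretch could not be told apart.

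FBXO44 belongs to the FBA family of F-box proteins, some of which bind sugar chains of glycoproteins, with FBXO2, FBXO6, FBXO17 and FBXO27. This group of 5 was picked out after the values were seen. FBXO2, FBXO44 and FBXO6 lie side by side on chromosome 1, between 11637018 and 11674354, and had log2 fold changes of 0.82 (SE 0.52), -0.51 (SE 0.16) and -0.03 (SE 0.56). FBXO2 and FBXO6 were low, at 0.468 and 1.96 TPM on average, and FBXO44 had 7.31 TPM. The errors of FBXO2 and FBXO6 leave their directions undetermined, and FBXO44 and FBXO2 overlap on opposite strands.

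FBXO17 and FBXO27 lie near each other on chromosome 19 and varied between lines rather than between groups. FBXO17 had 52.2, 26.2 and 38.8 CPM in GST lines 2, 8 and 9 and 57.0, 44.3 and 22.4 CPM in NOCT lines 4, 11 and 12. FBXO27 had 1.74, 0.788 and 1.28 CPM in the GST lines and 2.28, 1.93 and 0.602 CPM in the NOCT lines. Both genes were lowest in NOCT line 12 and GST line 8, and highest in NOCT line 4. The genes around FBXO17 deviated from their mean by 0.26, -0.40 and -0.12 in the GST lines and by 0.50, 0.42 and -0.63 in the NOCT lines. FBXO17 and FBXO27 share nearly all of these neighbours, so they are not separate cases.

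The same held more widely for members with at least 5 CPM. Over 46 such members other than FBXL7 in 6 lines, the deviation of a member from its mean correlated with that of its neighbours (Pearson r = 0.52, Spearman rho = 0.51, 276 points that share 6 libraries and, for some genes, neighbours). Neighbours deviated by at least 0.25 in 21 of these points, over 16 members, and the member deviated in the same direction in 20 of them. The same relation was not computed over all genes tested, so these figures have no background beside them. NOCT line 4 held 8 of the 21, NOCT line 12 held 5, GST line 8 held 4, GST line 2 held 3, NOCT line 11 held 1 and GST line 9 held 0. FBXO11 on chromosome 2 had 46.8 CPM in NOCT line 4 and 68.1 to 74.9 CPM in the others, where its neighbours deviated by -0.37 in line 4. FBXW2 on chromosome 9 had 68.2 and 63.1 CPM in NOCT lines 4 and 12 and 84.3 to 93.2 CPM in the others, with neighbours at -0.29 and -0.37 in those 2 lines. FBXO11 was picked out after its values were seen. What underlies the shared deviations was not tested.

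**Figure D5:**
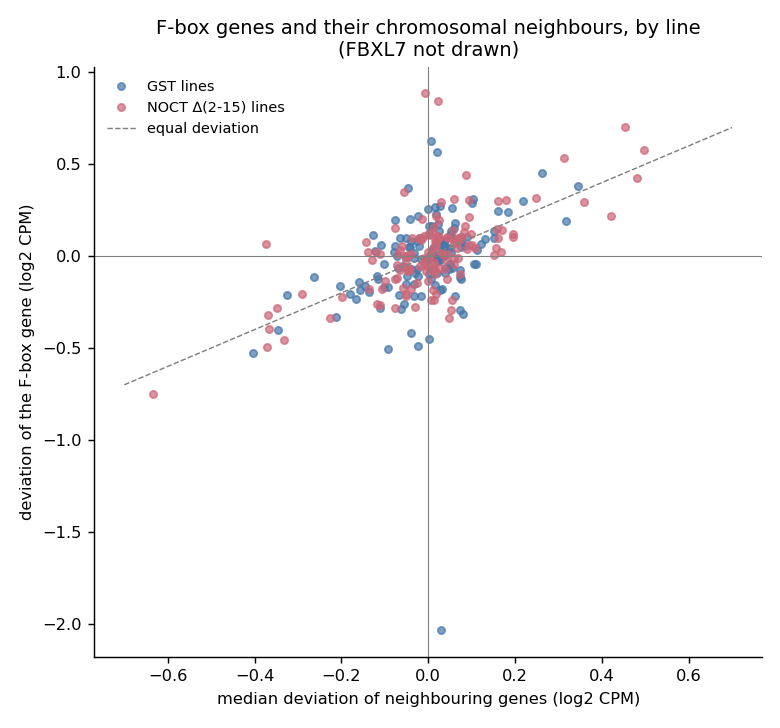
Deviation of each F-box gene with at least 5 CPM from its mean over the 6 lines (y axis, log2 CPM) against the median deviation of its chromosomal neighbours in the same line (x axis, log2 CPM); points are gene and line pairs of GST (blue) and NOCT (red) lines, and the dashed line marks equal deviation. The 276 points had r = 0.52, which does not measure closeness to the dashed line. FBXL7 is not drawn, and with it r was 0.34. The isolated point near the bottom is FBXL21 in GST line 8.

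FBXL21 varied most within a group. It is an F-box partner of the cryptochromes in other mammals and is annotated as a transcribed unitary pseudogene in human GENCODE. It had 13.8, 1.76 and 6.28 CPM in GST lines 2, 8 and 9 and 16.1, 16.6 and 9.63 CPM in NOCT lines 4, 11 and 12. The GST range was 2.66 on the log2 scale, and GST line 2 lay within the NOCT range. The log2 fold change was 0.96 (SE 0.59, edgeR adjusted p = 0.505). Its neighbours deviated by at most 0.03 in any line, so they did not vary with it. A range of at least 1 within a group occurred in 7 of 57 members (12.3%) and in 12.3% of all genes tested.

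FBXW11 and FBXL15 differed little between the groups. FBXW11, a receptor for the period proteins, had 73.8 to 80.1 CPM in GST lines and 77.0 to 82.0 CPM in NOCT lines, a log2 fold change of 0.06 (SE 0.09). FBXL15, a receptor for the ligase SMURF1, had one of -0.03 (SE 0.18), and its sign changed with the scaling: it was 0.12 with libraries scaled to the spike-in totals, and 0.064 without NOCT line 4.

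The SCF machinery that F-box proteins work with was listed as 36 genes of the core ligase, its neddylation, the COP9 signalosome and its ubiquitin-conjugating enzymes. None passed the adjusted threshold in edgeR, DESeq2 or limma voom, and 2, 4 and 3 had an unadjusted p under 0.05. In edgeR that is 5.56% of the 36 against 13.9% of all genes. The median log2 fold change was -0.02, with 13 higher and 23 lower in NOCT lines. UBE2D3 and UBE2G1, both ubiquitin-conjugating enzymes, had log2 fold changes of -0.33 (SE 0.11) and -0.29 (SE 0.10), and the UBE2D3 neighbours differed by -0.24. The adaptor SKP1 and the scaffold CUL1 had -0.16 (SE 0.10) and -0.02 (SE 0.08).

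F-box proteins with other symbols gave 10 further genes, of which 8 were tested and ECT2L and NCCRP1 were not. SKP2, the receptor for the cell-cycle inhibitor p27, had 143, 154 and 157 CPM in the GST lines and 121, 120 and 134 CPM in the NOCT lines. Every NOCT line was below every GST line, and the fitted difference was -0.28 on the log2 scale (SE 0.09, edgeR adjusted p = 0.241). SKP2 was the only one of the 8 with an unadjusted p under 0.05 in edgeR, or 12.5% against 13.9% of all genes. The groups did not overlap for SKP2 and BTRC, or 25% of the 8 against 20.02% of all genes. No gene of this list passed the adjusted threshold in edgeR, DESeq2 or limma voom.

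RNA of 25 genes whose proteins are known F-box targets was also read, which says nothing about the proteins. For FBXL7, the targets are AURKA and BIRC5, and their RNA had log2 fold changes of 0.18 (SE 0.22) and -0.05 (SE 0.09). AURKA had 89.0, 70.1 and 72.4 CPM in the GST lines and 97.8, 107 and 56.7 CPM in the NOCT lines, so the groups overlapped. The sign for AURKA changed without NOCT line 11 (-0.0029). That for BIRC5 changed without GST line 9 (0.021) and with spike-in totals (0.10). The pair was named after its values were seen.

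Among all 25, none passed the adjusted threshold in edgeR or limma voom, where 6 and 5 had an unadjusted p under 0.05. In edgeR that is 24% of the 25 at an unadjusted p under 0.05, against 13.9% of all genes. DESeq2, in which 3.41% of all genes passed the adjusted threshold, called CDKN1B, MYC and NOTCH1. NOTCH1, a target of FBXW7, had 48.3, 55.6 and 51.3 CPM in the GST lines and 33.2, 21.4 and 22.2 CPM in the NOCT lines, or -1.01 on the log2 scale (SE 0.18, edgeR adjusted p = 0.0949). Its neighbours on chromosome 9 differed by -0.29, and with the neighbour offset NOTCH1 was at -0.73 (edgeR adjusted p = 0.0871). MYC, another FBXW7 target, had 53.5, 42.4 and 52.6 CPM against 14.1, 12.2 and 32.1 CPM, or -1.35 on the log2 scale (SE 0.34, edgeR adjusted p = 0.184). CDKN1B, which encodes the SKP2 target p27, had 60.3, 56.2 and 58.1 CPM against 87.0, 77.1 and 71.8 CPM, or 0.44 on the log2 scale (SE 0.10, edgeR adjusted p = 0.159). JUN and MCL1 had log2 fold changes of 0.59 (SE 0.21) and 0.28 (SE 0.10). Without NOCT line 12, edgeR called MYC (adjusted p = 0.00124), NOTCH1 (0.0278), JUN (0.0299) and CDKN1B (0.0321), and without NOCT line 4 it called NOTCH1 (0.0363). With no filter beyond 1 count edgeR called MYC (1.04e-05), NOTCH1 (1.24e-05) and JUN (0.0152), and with the neighbour offset it called MYC (log2 fold change -1.63, 0.0349). None of the other edgeR fits called any of these 4 genes. How many of all genes the alternative edgeR fits called was not counted, so these calls have no background beside them. The receptor FBXW7 itself had 48.3, 39.7 and 35.9 CPM in the GST lines and 32.7, 30.7 and 37.4 CPM in the NOCT lines, groups that overlapped, and the fitted difference was -0.30 on the log2 scale (SE 0.14, edgeR adjusted p = 0.389).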

How the data were processed

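Total RNA of the 6 lines was depleted of ribosomal RNA and sequenced as strand-specific 50 bp reads, per the labels' protocols. The submitters' processing notes name Trimmomatic 0.33, cutadapt 1.8.1, STAR 2.5.2b, HTSeq 0.6.1p1, DESeq2 1.16.1 and GRCh38. The authors deposited whole-number counts per gene and line. Of the reads in a file, 42.9% to 47.1% carry no gene name and were left out of library sizes. The authors also deposited TPM values (49 gene rows are repeated and were used once) and a DESeq2 comparison table. That deposited table gives a baseMean signal, a log2 fold change, a Wald score and p-values with adjusted p-values; its direction was read from its construct rows. Reads with near-identical copies elsewhere can be uncounted.

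The counts were tested with edgeR 4.0.16 in R 4.3.3 (filterByExpr, TMM, quasi-likelihood test, Benjamini-Hochberg over 17261 genes, threshold 0.05). SE is the log2 fold change over the root of F. The biological coefficient of variation was 19.7%. Deviations use log2(CPM + 0.5). The neighbour offset is the median deviation of up to 50 tested genes with at least 1 CPM on each side, computed without the groups. The edgeR step was tested on simulated data. Coordinates come from GENCODE release 29, matched by identifier, and promoter windows from RefSeq (GRCh38.p14). Alternatives were DESeq2 1.42.0, limma 3.58.1, other scalings and filters, TPM pseudocounts of 1 and 0.1, the neighbour offset and leaving out each line.

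The members and gene lists were chosen with earlier results of these data known. Named genes were FBXL7, members with an unadjusted p under 0.05 or groups that do not overlap, the 3 highest by TPM in each class, the 3 with the largest range within a group, the clock-related members, and up to 5 genes at an unadjusted p under 0.05 per other list. Paralogs by protein identity were not used here, and 1 member counted in the totals and 1 marker are not reported here.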

Additional observations from a re-analysis of the deposited data

How the results depend on the processing

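FBXL7 was lower in NOCT lines in 15 of 15 alternatives, and its call was kept in 9. It was lost with limma voom (log2 fold change -5.31) and limma on log2(TPM + 1) (-2.55), and leaving out 1 line gave -6.10 to -4.86, with adjusted p values of 0.00667 to 0.245. Read number limits the precision for the 7 untested genes, for FBXL7 in the NOCT lines (3 to 12 reads) and for low tested members such as FBXO2 (6 to 28 reads a line) and FBXW12 (1 to 14 reads a line).

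The count of members past the adjusted threshold was 2 with DESeq2, 0 with limma voom, 2 with no filter beyond 1 count, 0 on log2(TPM + 1) and 0 to 2 without 1 line. Without NOCT line 12 the second member was FBXO7 (adjusted p = 0.0479), and with DESeq2 and no filter it was FBXO32. Over all genes, edgeR called 10, DESeq2 called 508 and limma voom called 16. Calls over all genes were not counted for the other settings. Members with groups that do not overlap numbered 14 to 23 without 1 line, since fewer lines overlap less. They numbered 20 without GST line 2 and 23 without NOCT line 12. The share of all genes with groups that do not overlap was not counted without 1 line. These counts of members therefore have no background beside them.

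The median log2 fold change of members was 0.17 with spike-in totals (all genes 0.15), 0.10 on log2(TPM + 1), 0.10 on log2(TPM + 0.1), -0.0046 with the neighbour offset and -0.000484 to 0.0490 without 1 line. SCF machinery genes at an unadjusted p under 0.05 numbered 4 with DESeq2, 4 with spike-in totals, 4 with no filter, 5 with the neighbour offset and 0 to 7 without 1 line (0 without GST line 9, 1 without NOCT line 11, 4 without GST line 2, 7 without NOCT line 12). F-box genes with other symbols numbered 2 with DESeq2, 2 with no filter, 0 and 0 on the TPM scales, 2 with the neighbour offset and 0 to 2 without 1 line (0 without GST line 9, 2 without NOCT line 12). Substrate genes numbered 11 with spike-in totals and 3 to 6 without 1 line (3 without NOCT line 4). Shares of all genes at this threshold were counted only for the reported edgeR fit (13.9%), DESeq2 (13.5%) and limma voom (14.3%). The counts under the other settings therefore have no background beside them. Genes near FBXL7 had a median of -0.10 within 2 Mb. For all of these, the cause was not tested.

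FBXL15 was 0.12 with spike-in totals, 0.044 and 0.049 on the TPM scales, 0.015 with the neighbour offset and -0.16 to 0.064 without 1 line. FBXO17 was -0.15 with the neighbour offset and -0.23 to 0.38 without 1 line. AURKA ranged from -0.0029 to 0.41 without 1 line. BIRC5 was 0.10 with spike-in totals, 0.041 and 0.041 on the TPM scales and -0.098 to 0.021 without 1 line. Of the other named genes, 25 were followed through the alternatives, and none of them passed the adjusted threshold in the reported fit. They gave 375 checks: 347 kept direction and stayed short of the threshold, 15 passed it and 13 changed sign. Further genes named above, such as FBXO5, FBXL14, FBXL20, FBXW2 and FBXW7, were not followed singly. No paired analysis was possible because the lines of the 2 groups share no replicate number.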
